A study of Mus musculus with 21 samples.

Results

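The genes described are the 5 subunits of the transcription factor NF-kB (Nfkb1, Nfkb2, Rel, Rela and Relb), 3 cytoplasmic inhibitors of it (Nfkbia, Nfkbib and Nfkbie) and 2 nuclear IkB proteins (Nfkbiz and Bcl3). They were chosen by gene symbol, from the Ensembl identifiers of the deposited table, and all 10 were found among its 23250 genes. All 10 also passed the filter on low counts, which left 13468 genes for testing. NF-kB is a dimer of Rel-family proteins that the cytoplasmic IkB proteins hold outside the nucleus of a resting macrophage, and phosphorylation and loss of IkB after a danger signal lets it enter the nucleus and switch on inflammatory genes. Several of its own genes are among its textbook targets, Nfkbia above all, whose protein takes the dimer off DNA again. The nuclear IkB proteins act on dimers that already sit on DNA, and IkB-zeta, the product of Nfkbiz, is known as a coactivator for a late set of genes that includes Il6.

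RNA-seq was done on bone-marrow macrophages from the C57BL/6J strain, grown for 7 days in medium with supernatant of a line that secretes GM-CSF, a myeloid growth factor. The series states that the cells lack the mannose receptor, a lectin encoded by Mrc1. All 7 groups share this deficiency. They are untreated cells at 0 h, cells given FcMR for 4, 12 or 24 h and cells given an isotype control for 4, 12 or 24 h, with 3 libraries in each and 21 in all. FcMR joins the Fc part of human IgG1 to the extracellular part of the mannose receptor, and the question of the series is what this soluble receptor does to macrophages. No untreated library was taken after 0 h, so the effect of the control protein and that of time in culture cannot be told apart. No label says which libraries came from separate mice or cultures, so p-values measure only the spread between these libraries.

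Library totals ran from 5532225 to 66729533 counts, and at the smallest total 3 counts correspond to 0.542 CPM, the unit of all levels here, in which counts are scaled to 1 common total per library. Mrc1 had 0 to 11 counts in a library. The summed level of 8 macrophage and monocyte markers was 26500 to 28700 CPM in untreated cells. With FcMR it was 24300 to 25200 CPM at 4 h, 19600 to 23900 at 12 h and 26700 to 29000 at 24 h, against 26300 to 32200, 23900 to 26500 and 33900 to 38200 with the isotype control, so that it lay lower with FcMR at 4 and 24 h without overlap. Lyz2 alone ran from 16000 to 32600 CPM over the libraries, and no other marker of the 8 exceeded 1920 CPM. The sum is therefore mostly Lyz2, and the other markers were not compared singly. Granulocyte markers (8 genes) went from 1570 to 1770 CPM in untreated cells to 192 to 238 CPM at 24 h. The 6 dendritic cell markers summed to 3880 to 4200 CPM in untreated cells and to 2150 to 3370 CPM over the other groups, without overlap. The 5 lymphocyte markers summed to 0.875 to 5.69 CPM. The 4 fibroblast markers summed to 10.2 to 16 CPM with FcMR at 12 h and 8.1 to 10.9 at 24 h, against 2.09 to 2.85 and 0.345 to 1.47 CPM with the isotype control, with Col3a1 at 0 counts in 16 libraries. Over all libraries the highest levels were 13.9 CPM for Pdgfrb, 3.61 for Dcn, 1.63 for Col1a1 and 0.288 for Col3a1. No fibroblast marker other than Pdgfrb exceeded 3.61 CPM in any library. The part that other cells play in the results was not tested. GC-rich transcripts took unequal shares in libraries of the same group. The GC tilt measures this as the average log2 level of the GC-richest 10% of genes less that of the GC-poorest 10%, and it ran from −1.58 (isotype 4 h replicate 2) to 0.821 (isotype 12 h replicate 3). The running numbers in the titles go group by group, save that isotype 4 h replicate 3 and FcMR 12 h replicate 1 have swapped positions. The former had a tilt of 0.641 where its group had −0.825 and −1.58, and the latter −0.722 where its group had 0.722 and 0.8. In Nfkbiz level each stood with the group it is labelled as, with 149 CPM beside 138 and 101, and 46.7 CPM beside 48.8 and 40.3. Tests of the 10 genes between groups, and the joint test over time, were also run without these libraries. Levels, likeness of profiles and the pathway lists rest on all 21 libraries.

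On GRCm38, with GENCODE M21 as annotation, Nfkb1 (ENSMUSG00000028163.17) spans chr3:135584655-135691547 on the minus strand and Nfkb2 (ENSMUSG00000025225.14) chr19:46304320-46312385 on the plus strand. Rel (ENSMUSG00000020275.9) lies at chr11:23736847-23770970 on the minus strand, Rela (ENSMUSG00000024927.7) at chr19:5637483-5648130 on the plus strand and Relb (ENSMUSG00000002983.17) at chr7:19606217-19629438 on the minus strand. Of the inhibitors, Nfkbia (ENSMUSG00000021025.8) lies at chr12:55489410-55492647 and Nfkbib (ENSMUSG00000030595.15) at chr7:28758251-28767512, both on the minus strand, and Nfkbie (ENSMUSG00000023947.7) at chr17:45555703-45563169 on the plus strand. Nfkbiz (ENSMUSG00000035356.16) lies at chr16:55811375-55838899 and Bcl3 (ENSMUSG00000053175.17) at chr7:19808462-19822770, both on the minus strand. Values are summed over each whole gene. Exons of Nfkb2, Nfkbib and Bcl3 overlap exons of genes on the opposite strand (Psd and AC114539.1, Ccer2 and Sirt2, and Gm16175), and with no strand stated for the counting, reads from these partners cannot be told apart. The longest transcripts differ in base composition, from 42.5% GC for Rel and 44.9% for Nfkb1 to 59.4% for Nfkb2 and Rela and 62.6% for Bcl3.

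The promoters of NF-kB genes are known for binding NF-kB itself, so the 250 bases before the start were searched for the NF-kB consensus on both strands, with overlapping matches counted as 1 site. RefSeq windows (GRCm38.p6) were held for 7 of the 10 genes, in 9 windows, and not for Nfkb1, Relb and Nfkbiz. The upstream part held the consensus in 4 of the 7, Nfkb2, Rel, Nfkbia and Nfkbie, and not in Rela, Nfkbib or Bcl3. Over all 32851 windows of the table, 7.25% held it, and 0.4% held 2 or more sites as the first window of Nfkb2 did. Shown are the upstream parts of Nfkbia (chr12:55492648-55492897, minus strand), Nfkbie (chr17:45555450-45555699, plus strand) and Rel (chr11:23770971-23771219, minus strand), because Nfkbia was higher with FcMR at all 3 times, Nfkbie at 12 and 24 h and Rel at 4 h. After them come both sites of the first of the 3 windows of Nfkb2 with their flanks (chr19:46304698-46304708 and chr19:46304726-46304735, plus strand), and the match is in capitals. All run 5′ to 3′ on the strand of the gene.
Nfkbia: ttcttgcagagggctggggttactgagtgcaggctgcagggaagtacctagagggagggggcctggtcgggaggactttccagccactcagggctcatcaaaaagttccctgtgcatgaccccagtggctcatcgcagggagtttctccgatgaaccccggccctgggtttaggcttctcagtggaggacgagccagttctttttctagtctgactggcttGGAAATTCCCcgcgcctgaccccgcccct
Nfkbie: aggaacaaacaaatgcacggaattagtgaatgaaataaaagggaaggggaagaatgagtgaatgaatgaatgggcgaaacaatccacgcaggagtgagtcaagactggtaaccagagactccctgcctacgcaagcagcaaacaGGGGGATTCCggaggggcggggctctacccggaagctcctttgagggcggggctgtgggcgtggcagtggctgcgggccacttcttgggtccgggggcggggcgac
Rel: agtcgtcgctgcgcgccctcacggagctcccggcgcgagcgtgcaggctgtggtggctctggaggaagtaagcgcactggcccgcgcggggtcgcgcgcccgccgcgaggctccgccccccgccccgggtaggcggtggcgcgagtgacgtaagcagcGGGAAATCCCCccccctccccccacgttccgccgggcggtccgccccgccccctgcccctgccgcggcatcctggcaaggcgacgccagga
Nfkb2, distal site: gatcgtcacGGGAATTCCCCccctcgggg
Nfkb2, proximal site: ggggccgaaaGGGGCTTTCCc
The match lay 29 to 20 bases before the start in Nfkbia, 106 to 97 bases before it in Nfkbie and 92 to 82 bases before it in Rel. The 2 sites in the first window of Nfkb2 lay 39 to 29 and 11 to 2 bases before the RefSeq start of that window. The window (chr19:46304487-46304736) lies within the GENCODE gene, which begins at 46304320. The other windows of Nfkb2, which belong to later starts, held 1 site each, 236 to 227 bases before the start in the second and 225 to 216 in the third. A match of letters is a description of the sequence and no evidence of binding in these cells.

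FcMR against the isotype control at 4 h asked what the soluble receptor did early. The mRNA of Nfkbiz, Nfkbia, Nfkb1 and Rel was higher with FcMR, from 4.34-fold for Nfkbiz to 1.6-fold for Rel. These were 4 of the 10 genes, 2 of 5 subunits, 1 of 3 cytoplasmic inhibitors and 1 of 2 nuclear IkB proteins, and none was lower. By the same rule (edgeR quasi-likelihood test, Benjamini-Hochberg adjusted p under 0.05), 17.7% of all genes tested were called, 8.62% higher. FcMR and isotype libraries did not overlap, in either direction, for 29.7% of all genes tested at 4 h. That share was 35.4% at 12 h and 34.4% at 24 h. All 10 estimates were above 0, with a median log2 fold change of 0.67 against −0.07 over all genes tested. Scaling by RLE factors gave 1412 genes higher and 839 lower in place of 1161 and 1229. In bulk RNA, a different number of expressing cells and a different amount of RNA per cell cannot be told apart.

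Nfkbiz was at 30.4, 33.4 and 33 CPM in the untreated libraries, at 138, 101 and 149 CPM with the isotype control at 4 h and at 544, 591 and 553 CPM with FcMR. No library of one group reached the level of another. Against untreated cells, 42.4% of all genes did not overlap with the isotype control at 4 h and 64.4% with FcMR at 4 h. FcMR over isotype gave a log2 fold change of 2.12 (SE 0.116, adjusted p 2.28e-09 by edgeR).

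Nfkbia encodes IkB-alpha, the fast feedback inhibitor. It was at 358, 290 and 564 CPM with the isotype control and at 761, 840 and 794 CPM with FcMR. All FcMR libraries were above all isotype libraries, and isotype replicate 3 was the highest of its group. The log2 fold change was 0.98 (SE 0.173, adjusted p 0.000621 by edgeR). A fit of these 6 libraries alone gave an adjusted p of 0.0509.

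Nfkb1 encodes the precursor of the subunit that pairs with RelA in the classical dimer. It was at 411, 342 and 492 CPM with the isotype control and at 747, 840 and 792 CPM with FcMR, without overlap, and its log2 fold change was 0.93 (SE 0.114, adjusted p 1.77e-05 by edgeR). Rel, the c-Rel subunit that in macrophages drives Il12b among others, was at 287, 313 and 227 CPM against 427, 449 and 446 CPM. The groups did not overlap here either, and the FcMR libraries lay close together. Rel changed by 0.68 on the log2 scale (SE 0.169, adjusted p 0.00942 by edgeR).

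The other 6 genes did not pass at 4 h. Nfkb2, which encodes the precursor of the non-canonical pathway, was at 175, 107 and 347 CPM with the isotype control and at 380, 445 and 389 CPM with FcMR, a log2 fold change of 0.95 (SE 0.329, adjusted p 0.0564 by edgeR). The groups did not overlap, but isotype replicate 3 came close to the FcMR libraries. This gene passed with RLE factors (adjusted p 0.0336), with the authors' own factors (0.0335), with DESeq2 (0.00987) and with limma-voom (0.0291). For Rela, the main transactivating subunit, isotype libraries held 84, 51.2 and 152 CPM and FcMR libraries 140, 160 and 153 CPM, with an estimate of 0.65 (SE 0.288, adjusted p 0.135 by edgeR). Relb (0.35, adjusted p 0.444), Nfkbib (0.65, 0.429), Nfkbie (0.21, 0.484) and Bcl3 (0.30, 0.735) had wide errors for their size. Isotype replicate 3 lay within the FcMR range for Rela and above it for Relb, Nfkbib, Nfkbie and Bcl3, while isotype replicates 1 and 2 lay below every FcMR library in all 5 genes.

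**Figure D1:**
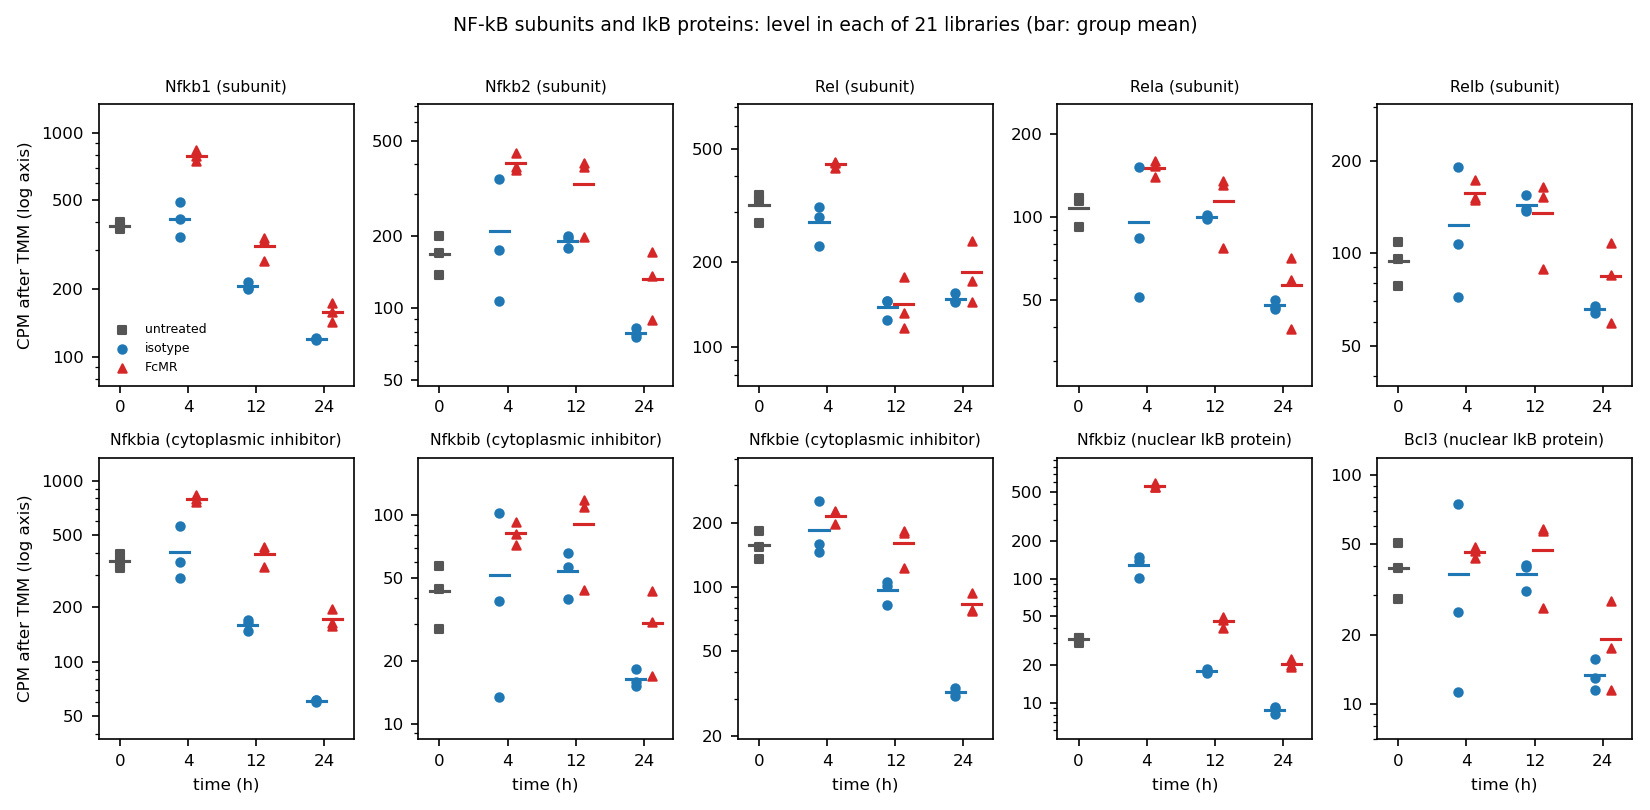
Level of each gene in each of the 21 libraries (CPM after TMM scaling, log axis) against time in hours, with a bar at the mean of each group of 3. FcMR and isotype libraries of Nfkbiz, Nfkbia and Nfkb1 are apart at all 3 times, where 29.7%, 35.4% and 34.4% of all genes are apart at 4, 12 and 24 h. The isotype 4 h libraries of Nfkb2, Rela, Relb, Nfkbib and Bcl3 spread widely.

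That spread went with base composition, though not for every gene to the same degree. Within the isotype 4 h group, replicate 3 exceeded replicate 2 by 2.91 on the log2 scale for Nfkbib, 2.72 for Bcl3, 1.70 for Nfkb2, 1.57 for Rela and 1.40 for Relb, the 5 genes with the highest GC content. It exceeded it by 0.96 for Nfkbia, 0.79 for Nfkbie, 0.56 for Nfkbiz and 0.52 for Nfkb1, and for Rel, the gene lowest in GC, the difference was −0.46. Over all genes tested the median difference went from −0.51 in the 996 genes under 40% GC to 1.99 in the 417 genes of 60% or more. Against the median difference over all genes of like GC content (in brackets), Nfkbib (1.49), Nfkb1 (−0.36) and Bcl3 (1.99) lay furthest above it, Nfkbia (0.51), Relb (0.98) and Nfkbiz (0.17) less far, and Nfkb2, Rela, Rel and Nfkbie close to it.

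**Figure D2:**
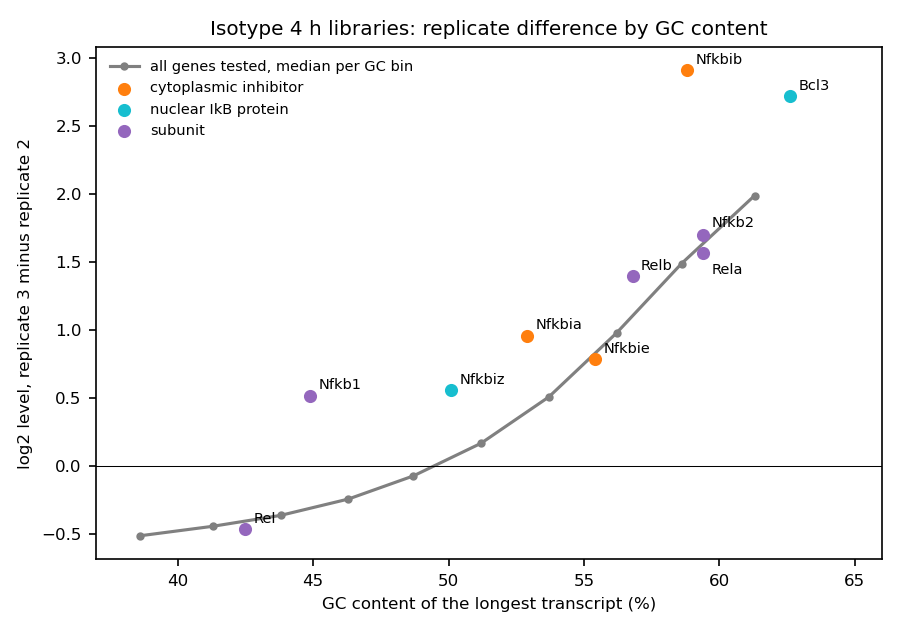
Difference in log2 level between replicate 3 and replicate 2 of the isotype 4 h group (vertical axis) against the GC content of the longest transcript in percent (horizontal axis), for the 10 genes as coloured points and for all genes tested as the median per GC bin (grey line). The line climbs from −0.51 to 1.99, and the genes run from −0.46 for Rel to 2.91 for Nfkbib.

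With a GC correction, which takes a smooth curve of level on GC content out of each library, 9 of the 10 genes were higher with FcMR at 4 h, where 27.8% of all genes were called and 17.2% were higher. The isotype levels of Nfkb2 became 248, 228 and 237 CPM against 444, 485 and 484 CPM with FcMR, and those of Rela 119, 109 and 104 CPM against 163, 174 and 190 CPM. The groups of both genes were then apart and narrow. The share of all genes apart on corrected levels was not counted. The log2 fold change of Nfkb2 was 0.99 (SE 0.058, adjusted p 5.19e-10 by edgeR), and that of Rela 0.67 (SE 0.0929, adjusted p 2e-05), each close to the uncorrected estimate but with a smaller error. Nfkbib (0.81), Bcl3 (0.54) and Relb (0.35) also passed, and Nfkbie (0.16, adjusted p 0.199) did not. Leaving out isotype 4 h replicate 3 without correction gave 10 of 10 genes higher, with 3151 genes called in all, and raised the estimates of Nfkb2 to 1.53, Nfkbib to 1.65 and Bcl3 to 1.33. Nfkbiz, Nfkbia, Nfkb1 and Rel were higher with FcMR in each of these fits.

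At 12 h FcMR libraries still held more of several of these mRNAs. Nfkbiz, Nfkbia, Nfkbie and Nfkb1 were higher with FcMR, by 2.53-fold, 2.46-fold, 1.68-fold and 1.51-fold, and none of the 10 was lower. That made 1 of 5 subunits, 2 of 3 cytoplasmic inhibitors and 1 of 2 nuclear IkB proteins, where 16.1% of all genes were called and 8.61% were higher. The difference between subunits and inhibitors as classes was not tested.

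Nfkbia was at 148, 163 and 170 CPM with the isotype control and at 336, 432 and 417 CPM with FcMR at 12 h. The groups were far apart, with a log2 fold change of 1.30 (SE 0.174, adjusted p 3.4e-05 by edgeR). Nfkbie encodes IkB-epsilon, known for a slower feedback than IkB-alpha. It was at 82.8, 101 and 106 CPM against 123, 180 and 183 CPM, and FcMR replicate 1 was the lowest of its group but above all isotype libraries. The log2 fold change was 0.74 (SE 0.185, adjusted p 0.0085 by edgeR). Nfkbiz was at 17.8, 18.6 and 17.4 CPM against 46.7, 48.8 and 40.3 CPM, a log2 fold change of 1.34 (SE 0.118, adjusted p 2.95e-07). Nfkb1 was at 202, 217 and 203 CPM against 268, 338 and 330 CPM, a change of 0.59 (SE 0.113, adjusted p 0.00113).

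Rel showed no such difference at 12 h. Its levels were 146, 145 and 125 CPM with the isotype control and 176, 132 and 117 CPM with FcMR, and the groups overlapped. The estimate was 0.03 (SE 0.169, adjusted p 0.952 by edgeR), with a normal 95% interval of −0.30 to 0.36. It turned to −0.06 with GC correction and to −0.16 without FcMR 12 h replicate 1, still without a call. Nfkb2 was at 179, 196 and 200 CPM against 199, 405 and 391 CPM, so that FcMR replicate 1 stood with the isotype libraries. Its estimate was 0.79 (SE 0.328, adjusted p 0.122 by edgeR) with that library and 1.05 (adjusted p 0.0341) without it. The GC correction brought the levels of Nfkb2 to 127, 130 and 125 CPM against 275, 269 and 255 CPM, with an estimate of 1.06 (SE 0.0575, adjusted p 1.32e-10).

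With that correction 8 of 10 genes were higher with FcMR at 12 h, where 25.1% of all genes were called and 14% were higher. Rela (0.49), Nfkbib (0.96) and Bcl3 (0.74) joined Nfkb2 and the 4 genes named above, and Rel and Relb (0.09, adjusted p 0.415 by edgeR) did not pass. Without correction Rela (0.19), Nfkbib (0.75), Bcl3 (0.34) and Relb (−0.09) had overlapping groups in CPM and edgeR adjusted p-values of 0.765, 0.394, 0.731 and 0.904. In the authors' normalized values Bcl3 was at 263, 360 and 301 with the isotype control at 12 h and at 463, 383 and 387 with FcMR. Its groups were apart on that scale at 4 and 24 h too. Rela, Nfkbib and Relb overlapped there at 12 h. The share of all genes apart on that scale was not counted.

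At 24 h the same 4 genes as at 12 h were higher with FcMR, with Nfkbia at 2.83-fold, Nfkbie at 2.56-fold, Nfkbiz at 2.36-fold and Nfkb1 at 1.32-fold. Again 1 of 5 subunits, 2 of 3 cytoplasmic inhibitors and 1 of 2 nuclear IkB proteins passed, where 20.9% of all genes were called and 11.4% were higher. The median log2 fold change was 0.35 over the subunits and 1.36 over the cytoplasmic inhibitors, beside 0.01 over all genes tested.

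Nfkbia was at 61.4, 59.7 and 61 CPM with the isotype control and at 164, 157 and 196 CPM with FcMR at 24 h. The isotype libraries were nearly equal and far below, with a log2 fold change of 1.5 (SE 0.177, adjusted p 5.64e-06 by edgeR). Nfkbie was at 31, 33.8 and 32.3 CPM against 78, 77.4 and 93.4 CPM, also without overlap, and changed by 1.36 (SE 0.193, adjusted p 4.5e-05). For Nfkbiz the values were 9.12, 9.11 and 8.11 CPM against 19.2, 22.6 and 20.1 CPM, with a change of 1.24 (SE 0.128, adjusted p 1.24e-06). These 3 inhibitory or modulating genes kept the call in every alternative tried at 24 h.

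Nfkb1 had the smallest difference that passed at 24 h. It was at 119, 121 and 120 CPM with the isotype control and at 158, 143 and 174 CPM with FcMR, without overlap, a log2 fold change of 0.40 (SE 0.114, adjusted p 0.018 by edgeR). The call was lost with GC correction (0.34, adjusted p 0.148), with the authors' own factors (0.35, 0.0589) and without FcMR 24 h replicate 3 (0.33, 0.0519). Nfkb2 was at 76.1, 83.1 and 78 CPM against 136, 89.7 and 172 CPM, with all FcMR libraries above. Its estimate was 0.74 (SE 0.332, adjusted p 0.135 by edgeR). After GC correction it was 0.99 (SE 0.0589, adjusted p 2.53e-10), with FcMR libraries at 172, 169 and 159 CPM and isotype libraries at 80, 90 and 81.7 CPM.

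The FcMR library of 24 h with the lowest tilt, replicate 2 at −1.3, was the lowest of its group for Nfkb2, Rela, Relb, Nfkbib and Bcl3 and the highest for Rel. Rel was at 171, 237 and 144 CPM with FcMR against 144, 155 and 145 CPM, with an estimate of 0.32 (SE 0.17, adjusted p 0.22 by edgeR). With GC correction 8 of 10 genes were higher at 24 h, where 30% of all genes were called and 16.5% were higher. Relb (0.52), Rela (0.49), Nfkbib (1.07) and Bcl3 (0.82) passed then, and Rel (0.21, adjusted p 0.0814) and Nfkb1 did not.

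**Figure D3:**
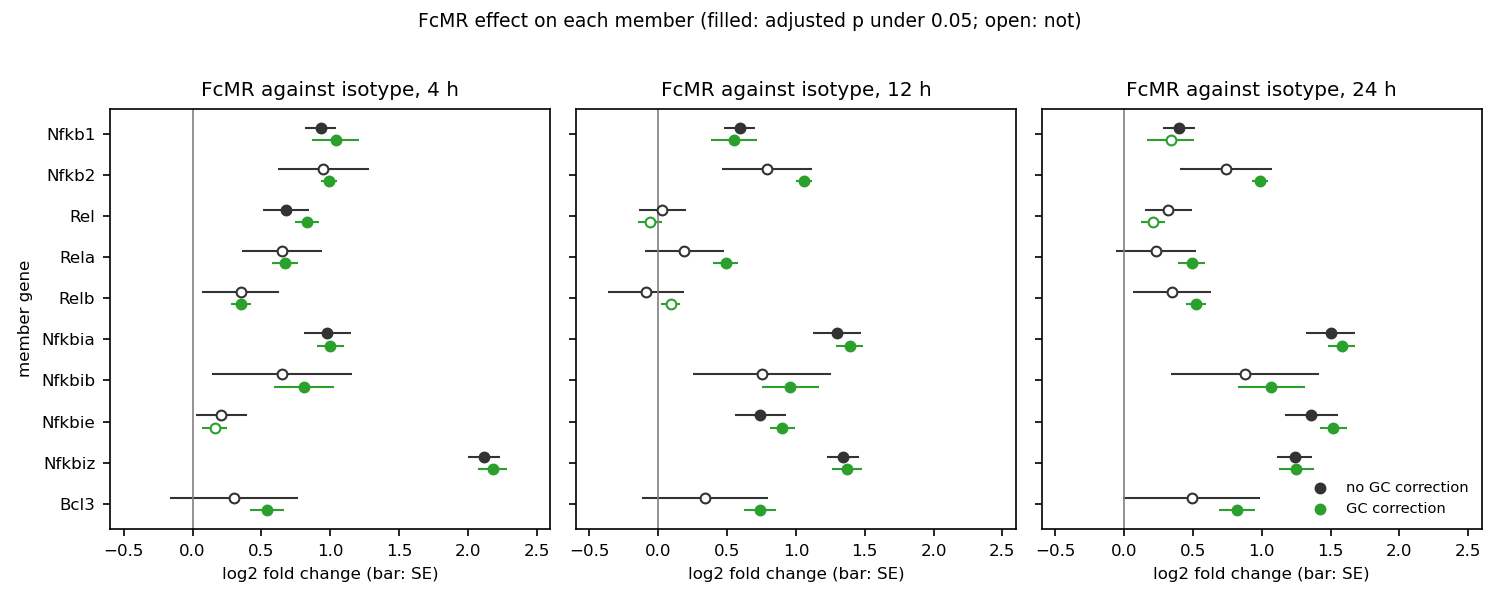
Log2 fold change of FcMR over isotype (horizontal axis, with the standard error as a bar) for each gene at 4, 12 and 24 h, without GC correction in black and with it in green, filled where the edgeR adjusted p is under 0.05. Nfkbiz falls from 2.12 at 4 h to 1.24 at 24 h, Nfkbie climbs from 0.21 to 1.36, and the correction narrows the bars of the GC-rich genes Nfkb2, Rela, Relb, Nfkbib and Bcl3.

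Whether the FcMR effect itself changed with time was tested in the same fit. A joint test over 4, 12 and 24 h called Nfkbiz (adjusted p 0.00273 by edgeR) and Nfkbie (adjusted p 0.0234), 2 of 10 genes, where 11% of all genes were called. The effect on Nfkbiz was smaller by 0.78 on the log2 scale at 12 h than at 4 h and smaller by 0.88 at 24 h than at 4 h. In these 2 steps the log2 values were −0.78 (SE 0.162, adjusted p 0.00988 by edgeR, with 5.39% of all genes called) and −0.88 (SE 0.171, adjusted p 0.00224, with 13.9% called). The effect on Nfkbie went the other way, larger by 1.14 at 24 h than at 4 h (SE 0.265, adjusted p 0.00785 by edgeR). The joint call of Nfkbie was lost with no filter on low counts (0.0683), without FcMR 4 h replicate 3 (0.0527), without isotype 24 h replicate 1 (0.0581) and without isotype 24 h replicate 3 (0.0507). The call of its difference between 24 h and 4 h was kept in all of them, with adjusted p-values of 0.00421 to 0.0221 over the libraries left out in turn.

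Nfkb1 had a smaller effect at 24 h than at 4 h, by −0.54 (SE 0.161, adjusted p 0.0337 by edgeR). The call was lost without any of 5 libraries (isotype 4 h replicate 1 or 2, FcMR 4 h replicate 2, FcMR 24 h replicate 2 or isotype 24 h replicate 2), with adjusted p-values of up to 0.0786. For Rel the difference between 12 h and 4 h was −0.65 (SE 0.239, adjusted p 0.135) and −0.89 after GC correction (SE 0.124, adjusted p 0.000116, with 12.9% of all genes called). For Nfkbia the effect at 24 h minus that at 4 h was 0.52 (SE 0.244, adjusted p 0.171), and 0.58 after GC correction (adjusted p 0.005, with 23% of all genes called). Between 24 h and 12 h none of the 10 genes was called by edgeR, and none had an unadjusted p under 0.05 other than Nfkbie, where 1.73% of all genes were called. After GC correction Nfkbie (0.62, adjusted p 0.00762) and Relb (0.43, adjusted p 0.0156) were called there, with 4.93% of all genes. The joint test over time then called Rel (0.000111), Relb (0.0127) and Nfkbia (0.013) besides Nfkbiz and Nfkbie, where 21.8% of all genes were called. Nfkb1 passed the joint test by edgeR without isotype 4 h replicate 3 (adjusted p 0.0111), without FcMR 12 h replicate 1 (0.0431) and without both (0.00428). It also passed without FcMR 24 h replicate 3.

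The isotype control and time in culture, compared with untreated cells, form the background of these differences. At 4 h Nfkbiz alone of the 10 genes passed, at 4.01-fold (log2 fold change 2.01, SE 0.118, adjusted p 3.34e-10 by edgeR), where 35.6% of all genes were called. The other 9 estimates lay between −0.20 and 0.40. They depended on isotype 4 h replicate 3: without it Nfkb1, Nfkb2, Relb, Nfkbia, Nfkbib and Nfkbie turned from above to below 0. In that fit 3 of the 10 genes were called, Nfkbiz higher (1.89) and Rela (−0.66) and Bcl3 (−1.1) lower. Of all genes, 6251 were called there, in place of 4792 with all libraries. With GC correction 9 of the 10 genes were called at 4 h, 8 higher, among them Nfkb2 (0.82) and Relb (0.77), and Rel lower (−0.43), where 43.6% of all genes were called.

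By 12 h the isotype libraries held less of Rel, Nfkbia, Nfkb1, Nfkbiz and Nfkbie than untreated cells. Their log2 fold changes were −1.19, −1.16, −0.90, −0.85 and −0.71, and 41.6% of all genes were called, 19.6% lower. With GC correction Rela (−0.37) and Bcl3 (−0.44) were also lower and Relb was higher (0.44), where 52.7% of all genes were called. By 24 h 9 of 10 genes were lower, where 42.2% of all genes were called and 20.9% were lower. Nfkbia was the furthest down, from 357, 328 and 393 CPM to 61.4, 59.7 and 61 CPM, a log2 fold change of −2.57 (SE 0.183, adjusted p 3.79e-09 by edgeR). On the log2 scale Nfkbie changed by −2.29, Nfkbiz by −1.88 and Nfkb1 by −1.68. Relb had an estimate of −0.52 (SE 0.283, adjusted p 0.154). The calls of Nfkbib, Bcl3 and Nfkb2 at 24 h were lost without untreated replicate 1, with adjusted p-values of 0.143, 0.0604 and 0.0525, and that of Nfkbib also without any of 4 other libraries (untreated replicate 3 and the isotype 24 h replicates) and with limma-voom. Bcl3 also lost its call without isotype 24 h replicate 1 (adjusted p 0.0626) or replicate 2 (0.0521). With GC correction all 10 genes were lower, where 53.7% of all genes were called.

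Set against untreated cells, the FcMR libraries of 4 h held more of 7 of the 10 genes, where 48.2% of all genes were called and 22.3% were higher. Nfkbiz was 17.4-fold higher (log2 fold change 4.12, SE 0.127, adjusted p 3e-14 by edgeR), Nfkb2 2.40-fold, Nfkbia 2.22-fold, Nfkb1 2.06-fold, Relb 1.68-fold, Rel 1.39-fold and Nfkbie 1.37-fold. The calls of Nfkbie (adjusted p 0.0498), Relb (0.036) and Rel (0.0261) were each lost when 1 of several libraries was left out, and 4 of the 7 were left without FcMR 4 h replicate 2. Rela (0.49), Nfkbib (0.93) and Bcl3 (0.23) did not pass, and all 10 genes passed with GC correction, where 57.4% of all genes were called. These comparisons share the untreated libraries with those above.

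At 12 h Nfkbia with FcMR stood at its untreated level within error (log2 fold change 0.14, SE 0.171, normal 95% interval −0.20 to 0.47), while the isotype libraries were at −1.16. Nfkbie was likewise at 0.04 (SE 0.184) with FcMR and at −0.71 with the isotype control. Nfkb2 and Nfkbiz were above untreated (0.97 and 0.49) and Nfkb1 and Rel below (−0.31 and −1.16), 4 of 10 genes where 48.1% of all genes were called. Without untreated replicate 2 or untreated replicate 3, 2 of these calls were left. The call of Nfkb1 was also lost with GC correction (adjusted p 0.119) and without FcMR 12 h replicate 1 (−0.18, adjusted p 0.184), and that of Nfkb2 without FcMR 12 h replicate 2 (0.0695) or replicate 3 (0.0629). Relb and Nfkbib were called higher without FcMR 12 h replicate 1 (0.77, adjusted p 0.0263, and 1.43, adjusted p 0.0262, by edgeR). With GC correction Relb (0.53), Nfkbib (1.07) and Bcl3 (0.30) were called higher, where 59.1% of all genes were called. Rel was at −1.16 with FcMR and at −1.19 with the isotype control.

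At 24 h FcMR libraries were below untreated cells for 6 genes, Nfkb1 (−1.29), Nfkbia (−1.06), Rela (−0.94), Nfkbie (−0.93), Rel (−0.78) and Nfkbiz (−0.64), where 51.4% of all genes were called and 25.4% were lower. Without FcMR 24 h replicate 2 Rela no longer passed (−0.68, adjusted p 0.0766). With GC correction Nfkb2 (0.31, adjusted p 0.000126) and Relb (0.25, adjusted p 0.00502) turned from below to above untreated cells and were called. In that fit 60.3% of all genes were called, 31.4% higher and 28.9% lower. All 6 genes called lower kept that call with the correction, Rela at a smaller size (−0.28, adjusted p 0.0144 by edgeR).

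Ordered by group mean, Nfkbiz ran from FcMR 4 h (563 CPM) through isotype 4 h (130), FcMR 12 h (45.3), untreated (32.3), FcMR 24 h (20.7) and isotype 12 h (17.9) to isotype 24 h (8.78), and the ranges of neighbouring groups did not overlap. For Nfkbia the order was FcMR 4 h (798 CPM), isotype 4 h (404), FcMR 12 h (395), untreated (359), FcMR 24 h (172), isotype 12 h (160) and isotype 24 h (60.7). The ranges of isotype 4 h, FcMR 12 h and untreated overlapped each other, and so did those of FcMR 24 h and isotype 12 h. Rel had its highest mean with FcMR at 4 h (441 CPM) and low ones at 12 h in both arms (139 and 142 CPM). Between the lowest and the highest library Nfkb1 varied 7.08-fold and Nfkb2 5.85-fold.

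To compare levels between genes, CPM were divided by length in kb of merged exons. On that scale Nfkbia led in all 7 groups, with 223 ± 20.4 CPM per kb (SD, n = 3) in untreated cells and 496 ± 24.8 with FcMR at 4 h. Nfkbiz was last of the 10 genes in untreated cells (6.43 ± 0.324 CPM per kb) and had rank 2 with FcMR at 4 h (112 ± 4.99), ahead of Nfkb2 (88.3 ± 7.69) and Nfkbie (71.1 ± 5.43). Per kb of the longest transcript it had rank 3 there (137 ± 6.09), behind Nfkbia and Nfkb1 (191 ± 11.2). By 12 h Nfkbiz was last again in both arms. Nfkb1 was at 32.0 ± 1.18 CPM per kb of merged exons in untreated cells but at 93.0 ± 3.42 per kb of its longest transcript, which moved it from rank 6 to rank 2, so its place among the genes depends on the length taken. Rel, Rela and Nfkb2 were at 42.3 ± 5.02, 35.0 ± 4.53 and 36.9 ± 6.74 CPM per kb in untreated cells and did not differ beyond their spread.

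**Figure D4:**
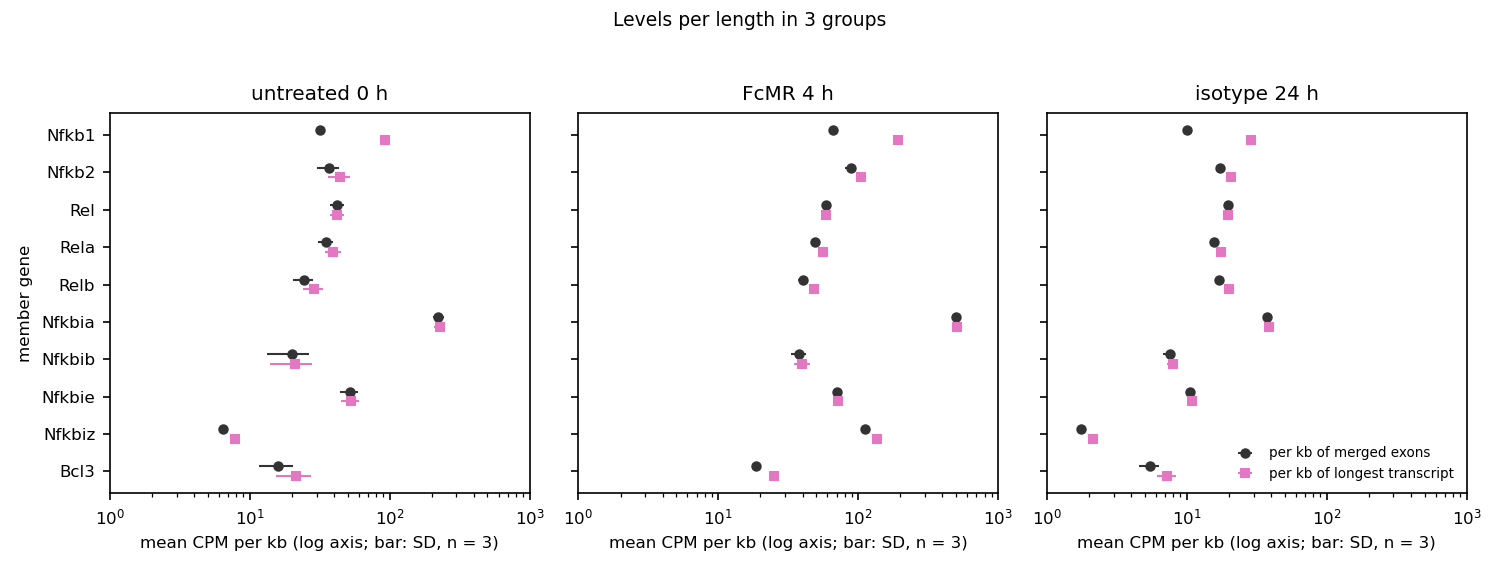
Mean level per kb of merged exons (black) or of the longest transcript (pink) for each gene in untreated cells, with FcMR at 4 h and with the isotype control at 24 h (log axis, bars are the SD of 3 libraries). Nfkbia is highest in each panel, and Nfkbiz is lowest in untreated cells at 6.43 and among the highest at 112 CPM per kb with FcMR at 4 h.

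The genes whose 7 group means were most like those of each member were found over all genes tested, as the root mean square difference of centred log2 CPM. For Nfkbia this was Adora2b (0.144), an adenosine receptor, followed by Ehf (0.251), Gng4 (0.269), Alpk2 (0.271) and Nod2 (0.275). For Nfkb2 it was Ebi3 (0.133), a cytokine subunit, followed by Pim3 (0.152), Ehd1 (0.153), F10 (0.158) and Ier3 (0.164). Nfkb1 was nearest to Pim1 (0.129), Rel to Il1rap (0.189), Rela to Ptpn23 (0.0955), Relb to Zdhhc18 (0.113), Nfkbib to Pim3 (0.149) and Nfkbie to Tlr2 (0.195). The nearest gene to Nfkbiz was Tnfsf15, at the larger distance of 0.346. Among the 10 genes themselves, Rela and Bcl3 (0.163) and Nfkb2 and Nfkbib (0.173) were closest, and Nfkbia and Nfkbie differed by 0.339. Rela, Bcl3, Nfkb2 and Nfkbib are also the genes with the highest GC content of the 10, and the part of GC content in their likeness was not tested.

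The rest of the pathway was read from 4 further lists, beside 8.62%, 8.61% and 11.4% of all genes called higher at 4, 12 and 24 h. Of 11 genes for IKK and related kinases, 4 were higher with FcMR than with isotype at 4 h, 4 at 12 h and 3 at 24 h, and none was lower. At 4 h these included Map3k8, a kinase that the Nfkb1 precursor binds (log2 fold change 0.87, adjusted p 1.23e-05 by edgeR), and Ikbkb, the kinase that marks IkB for loss (0.62, adjusted p 0.0011). Ikbke (0.48 and 0.42) and Ikbkg (0.41 and 0.30) passed at 12 and 24 h. Of 15 adaptors and ubiquitin ligases, 2 were higher at 4 h, Myd88 (0.67) and Irak2 (0.52), then Traf6 at 12 h (0.41) and Traf6 and Traf3 at 24 h (0.62 and 0.44), counts near the share of all genes. Of 12 other negative regulators, 4, 3 and 4 were higher, with Tnfaip3, which encodes the ubiquitin editor A20, at 1.34, 1.26 and 0.75. Zc3h12a, an mRNA-decay factor, was at 1.62 at 4 h and Tnip1, a partner of A20, at 0.99 at 12 h and 1.07 at 24 h. Zc3h12a was at 45.7 ± 30.1 CPM (SD, n = 3) in isotype 4 h libraries. Tnip1 was at 324 ± 96.8 CPM in FcMR 12 h libraries. The lists were not refitted with libraries left out or with GC correction. Nfkbid, a further nuclear IkB gene, was lower at 24 h (−0.62, adjusted p 0.027), the 1 lower gene of these lists.

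Of 20 textbook NF-kB target genes, FcMR libraries held more of 19 at 4 h, 19 at 12 h and 17 at 24 h, beside the same 8.62%, 8.61% and 11.4% of all genes. Their median log2 fold changes were 2.51, 1.69 and 1.8. Il6 was at 3.31 at 4 h and 4.01 at 12 h, Nos2 at 3.20 at 4 h, Il1b at 4.00 at 12 h and 4.37 at 24 h, and Ptgs2 at 3.99 at 24 h. The median of the 10 NF-kB and IkB genes over the same times was 0.67, 0.67 and 0.62. The lists were chosen with earlier results of these data known, so their counts are descriptions.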

How the data were processed

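RNA was sequenced as 75 bp single-end reads from 21 libraries, and each library's group and replicate number were read from its title. The first table, deposited by the authors as raw expression, gives estimated counts per gene as whole numbers. The submitters' processing notes name CASAVA 1.8.2, kallisto 0.44.0, DESeq2 and the build mm10 (GRCm38), with no role given for each. The table of normalized expression, deposited by the authors on a linear signal scale, equals the raw values divided by a factor per gene and library, with a geometric mean of 1 over the libraries for each of the 13034 genes without a 0. It was used only for an alternative scaling and for the groups of Bcl3, Rela, Nfkbib and Relb on that scale. Estimation can shift reads from a gene to a near-identical copy.

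Identifiers were matched without version to GENCODE M21, which gave a symbol to 23206 of 23250 genes, 21250 of them with the version too. Estimated counts were tested with the quasi-likelihood method of edgeR 4.0.16 under R 4.3.3. All libraries entered a single model with 1 coefficient for each group, TMM scaling, and filterByExpr at a minimum count of 10. Genes were called at a Benjamini-Hochberg adjusted p under 0.05 over all 13468 genes tested. The test was written for counts and kept, since it also takes estimated counts. Levels are CPM after TMM scaling, and log2 levels use a prior count of 2. The GC correction took a lowess curve (span 0.3) of log2 level on the GC content of the longest transcript, known for 99.8% of the genes tested, out of each library as an offset. Normal intervals use 95% and the SE. Alternatives were RLE factors, the authors' factors, other low-count filters, DESeq2 1.42.0, limma 3.58.1 (voom), the groups compared alone, the replicate number as a block, and libraries left out. Scripts were tested on simulated data.

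Counts of replicate libraries differed beyond sampling noise (the lowest chi-square divided by its degrees of freedom was 3.03), so each library counted as 1. Reads carry no molecular identifiers, so the level of 3 counts covers counting error only. The genes, the pathway lists and the marker lists were chosen with earlier results of these data known. Genes named besides the 10 follow a rule: per list and time, up to 2 called genes at each end of the fold changes whose average log2 CPM was 1 or more, and the nearest gene in profile (5 for Nfkbia and Nfkb2).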

Additional observations from a re-analysis of the deposited data

Results flagged for a closer look

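The FcMR effect on 3 of the genes differed between times by a test of the difference itself in edgeR. Of all genes, 11% were called in the joint test, 5.39% for 12 h minus 4 h and 13.9% for 24 h minus 4 h. Nfkbie had an adjusted p of 0.0234 in the joint test over 4, 12 and 24 h and a difference of 1.14 on the log2 scale between 24 h and 4 h. Its FcMR libraries were at 2.56-fold the isotype level at 24 h and at 1.16-fold at 4 h.

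Nfkbiz had an adjusted p of 0.00273 in the joint test, with differences of −0.78 between 12 h and 4 h and −0.88 between 24 h and 4 h. Its level with FcMR was 4.34-fold the isotype level at 4 h, 2.53-fold at 12 h and 2.36-fold at 24 h. Nfkb1 had a difference of −0.54 between 24 h and 4 h, from 1.91-fold to 1.32-fold. It did not pass the joint test (adjusted p 0.0833 by edgeR), and the call of its difference was lost without any of 5 libraries. The results for all 3 genes rest on 3 libraries in each group.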

How the results depend on the processing

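Of the 12 calls of FcMR over isotype, 10 were kept in every alternative, and 5 of 204 refits lost one: Nfkbia at 4 h with only the groups compared (adjusted p 0.0509) and Nfkb1 at 24 h in the 4 others, with estimates of 0.33 to 0.35. Of the 18 gene-and-time pairs not called, 15 passed in some alternative. No such count was made over all genes, so it is no result about these 10. With GC correction 27.8% of all genes were called at 4 h in place of 17.7%. The calls that changed most did so with the GC correction and without isotype 4 h replicate 3.

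GC correction called 9, 8 and 8 of the 10 genes for FcMR over isotype at 4, 12 and 24 h, in place of 4 at each time. For isotype over untreated it called 9 and 8 at 4 and 12 h in place of 1 and 5, where 43.6% and 52.7% of all genes were called. For the change over time it called 5 in place of 2. All genes called were 3740 in place of 2390 for FcMR over isotype at 4 h, 3382 in place of 2169 at 12 h and 2941 in place of 1484 over time. The replicate block with GC correction gave 9, 8 and 8, 9 and 8, and 5 genes, and 3899, 3560 and 3160 of all genes. Without both libraries out of title order, 10 genes were called for FcMR over isotype at 4 h and 3 for isotype over untreated, with 3898 of all genes for the former and 2616 over time. The fit of only the groups compared called 868 of all genes for FcMR over isotype and 2881 in place of 4792 for isotype over untreated at 4 h. With no expression filter 1 of the genes and 925 of all genes were called over time.

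Leaving out each library in turn called 4 to 10 of the genes for FcMR over isotype at 4 h, 4 to 5 at 12 h and 3 to 4 at 24 h (1589 to 3151, 1570 to 1841 and 2091 to 3135 of all genes). For isotype over untreated it called 1 to 3, 5 to 5 and 6 to 9 (3784 to 6251, 4577 to 5076 and 4876 to 5180), for FcMR over untreated 4 to 6, 2 to 5 and 5 to 7 (5478 to 5959, 5817 to 6374 and 6075 to 7293), and over time 1 to 3 (973 to 2294). The joint test over time called 973 of all genes without FcMR 4 h replicate 2 and 2294 without isotype 4 h replicate 3.

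Directions turned as follows, by fit. For FcMR over isotype at 12 h, Rel was at −0.06 and Relb at 0.09 with GC correction, with or without the replicate block, and at −0.16 and 0.14 without both libraries out of title order. For isotype over untreated at 4 h, Nfkb1 was at −0.05 with GC correction (−0.06 with the block), Rela at 0.35 and Bcl3 at 0.43 (0.42 with the block). Without both libraries out of title order Nfkb1 was at −0.03, Nfkb2 at −0.26, Relb at −0.07, Nfkbia at −0.15, Nfkbib at −0.69 and Nfkbie at −0.04. The authors' factors gave Nfkbia −0.02 there, and −0.02 for its effect at 12 h minus 4 h. With GC correction, with or without the block, Nfkb2 was at −0.08 in isotype 12 h over untreated, and in FcMR 24 h over untreated Nfkb2 was at 0.31, Relb at 0.25 and Nfkbib at 0.08. The cause was not tested.

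With 1 library left out, the estimates that turned ran as follows. For FcMR over isotype these were Bcl3 at 4 h (−0.08 to 1.33), Rel at 12 h (−0.16 to 0.15) and Relb at 12 h (−0.25 to 0.14). For isotype over untreated at 4 h they were Nfkb1 (−0.03 to 0.19), Nfkb2 (−0.26 to 0.59), Rela (−0.66 to 0.1), Relb (−0.07 to 0.63), Nfkbia (−0.15 to 0.32), Nfkbib (−0.7 to 0.69), Nfkbie (−0.04 to 0.36) and Bcl3 (−1.1 to 0.31), and at 12 h Bcl3 (−0.27 to 0.13). For FcMR over untreated they were Rela at 12 h (−0.03 to 0.33), Nfkbie at 12 h (−0.06 to 0.22) and Relb at 24 h (−0.34 to 0.08). The effect on Nfkbia at 12 h minus 4 h ran from −0.01 to 0.47.

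Replicate numbers are shared by all groups, but same-numbered libraries did not deviate together (mean correlations of −0.0708, 0.106 and 0.0138 for FcMR and isotype at 4, 12 and 24 h). The replicate block alone called 5, 4 and 4 of the genes and 2541, 2290 and 2911 of all genes for FcMR over isotype. It turned no direction and left 113 of 115 results on the same side of the threshold, as RLE factors did. With the block the 2 that gained a call were Nfkb2 for FcMR over isotype at 4 h (1.03, adjusted p 0.0326) and Bcl3 for FcMR over untreated at 24 h (−1.14, adjusted p 0.0315). Per length, 39 of 70 levels moved by less than the SD with the longest transcript. Depth limits no gene here, since the lowest count was well above 3.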
